A study of Drosophila melanogaster with 2 samples.

Results

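The genes of the basement membrane, of the extracellular matrix around it and of integrin adhesion were followed through single hemocytes of Drosophila larvae. The module holds 36 listed genes, and all 36 were found among the 17612 gene identifiers of the deposited counts. They comprise the collagen IV chains (Col4a1 and vkg), the laminin chains (LanA, wb, LanB1 and LanB2), further matrix proteins (Ndg, trol, SPARC, Ppn, Pxn, Tig, Glt and Mp), the matrix receptors (mys, Itgbn, mew, if, scb, ItgaPS5 and Dg), adhesion plaque proteins (rhea, Ilk, parvin, stck, Fit1, Fit2, Vinc, Pax, Fak and by), the matrix proteases and their inhibitor (Mmp1, Mmp2 and Timp) and the collagen-modifying enzymes (Plod and PH4alphaEFB). The list was drawn up by function, with earlier results of these data known. A basement membrane is a sheet of collagen IV and laminin networks, linked by nidogen and by the proteoglycan perlecan, that underlies epithelia and wraps organs. Cells hold on to it through integrins, which are heterodimers of an alpha and a beta chain, and the cytoplasmic tail of the beta chain is tied to actin by talin and its partners. In the fly, hemocytes, the macrophage-like blood cells, and the fat body secrete collagen IV and other matrix proteins, and matrix metalloproteinases cut this matrix.

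Each of the 5 groups of cells is 1 sample here, since no larva or gland is recorded beside a cell. Attached hemocytes had been taken by capillary from the surface of salivary glands, 10 pairs for each of the genotypes p35;RasV12 and RasV12, and circulating hemocytes had been sorted after bleeding 10 larvae per genotype, p35;RasV12, RasV12 or w1118. RasV12 is an active form of the Ras oncoprotein under UAS control, driven by BeadexMS1096-Gal4 in the salivary glands, and p35 is a baculovirus inhibitor of effector caspases that was expressed along with it. The control is labelled w1118, BeadexMS1096-Gal4, with the driver named beside the strain. Per the study, the cells taken had been picked by Eater, a plasmatocyte marker. The strain list also names an EaterDsRed reporter, which marks plasmatocytes, and w1118 stands in the names of the p35 and RasV12 strains too. RasV12 and p35;RasV12 larvae, which develop salivary gland tumors, are called the tumor genotypes here. Where values of the attached, circulating or tumor genotypes follow each other without names, they stand in the order p35;RasV12, RasV12 and, in circulation, w1118. Crosses per group and the age of the sequenced larvae are not given in the sources used here, the fixation in the labels is described for stained glands, and the genotype of each cell comes from the deposited annotation. The deposited records are titled w1118 and RasV12, and the latter carries the genotype tag p35. Neither title gives a location, which was taken from the annotation and the count tables. After filtering there were 19 attached p35;RasV12, 40 attached RasV12, 124 circulating p35;RasV12, 126 circulating RasV12 and 125 circulating w1118 cells.

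Cells had a median depth of 11295065 and 11146487 reads in the attached groups, where both mates of a pair were counted, and 582056 to 637375 in the circulating groups. No cell name was shared by the attached and circulating sets. With 1 sample per group there are no replicates, so no test between groups was possible, and intervals are exact 95% counting intervals of the summed reads, which are too narrow because PCR copies and mates are not independent. Levels are given as reads per 1000000 reads of a group (CPM), or per kilobase of counted exon as well (RPKM) where genes are set side by side, and fewer cells of a kind and less RNA per cell cannot be told apart in a sum. Attached and circulating cells also differed in isolation, in PCR cycles, in sequencer and in read layout, which cannot be told apart from location, and the circulating genotypes stood in separate plate columns (w1118 in columns 1 to 8, RasV12 in 9 to 16, p35;RasV12 in 17 to 24), which cannot be told apart from genotype. Plasmatocyte genes outside the module (NimC1, Hml, eater, srp and He) summed to 5962, 4772, 14889, 11925 and 7793 CPM in the 5 groups as listed above.

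The 36 genes together took 15724 CPM in attached p35;RasV12, 17982 CPM in attached RasV12, 48747 CPM in circulating p35;RasV12, 42417 CPM in circulating RasV12 and 36146 CPM in circulating w1118 cells. Per cell the sum ran over 1335 to 27412, 1036 to 51564, 13569 to 75286, 15809 to 66651 and 7076 to 68960 CPM in the same order of groups, so that the ranges overlapped. Without the collagen IV chains the sums were 13138, 14357, 39404, 34922 and 31222 CPM, in the same order. Secreted matrix proteins made up most of the reads, and receptors and plaque proteins stood far lower. Per length, SPARC, a collagen-binding matrix glycoprotein, was first in both attached genotypes (2128 and 1384 RPKM) and in both tumor genotypes in circulation (3999 and 2977 RPKM). In circulating w1118 cells Glt, the gene of the matrix protein glutactin, came first with 2681 RPKM, next to SPARC with 2628 RPKM. Glt was second in the other groups, and Pxn, a matrix peroxidase, and Col4a1 held the places behind SPARC and Glt in all 5 groups, between 1251 RPKM for Pxn in circulating p35;RasV12 and 269 RPKM for Col4a1 in attached p35;RasV12 cells. Perlecan (trol) reached only 1.77 and 2.87 RPKM in the attached genotypes and 4.56, 4.56 and 5.73 RPKM in the circulating genotypes.

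**Figure D1:**
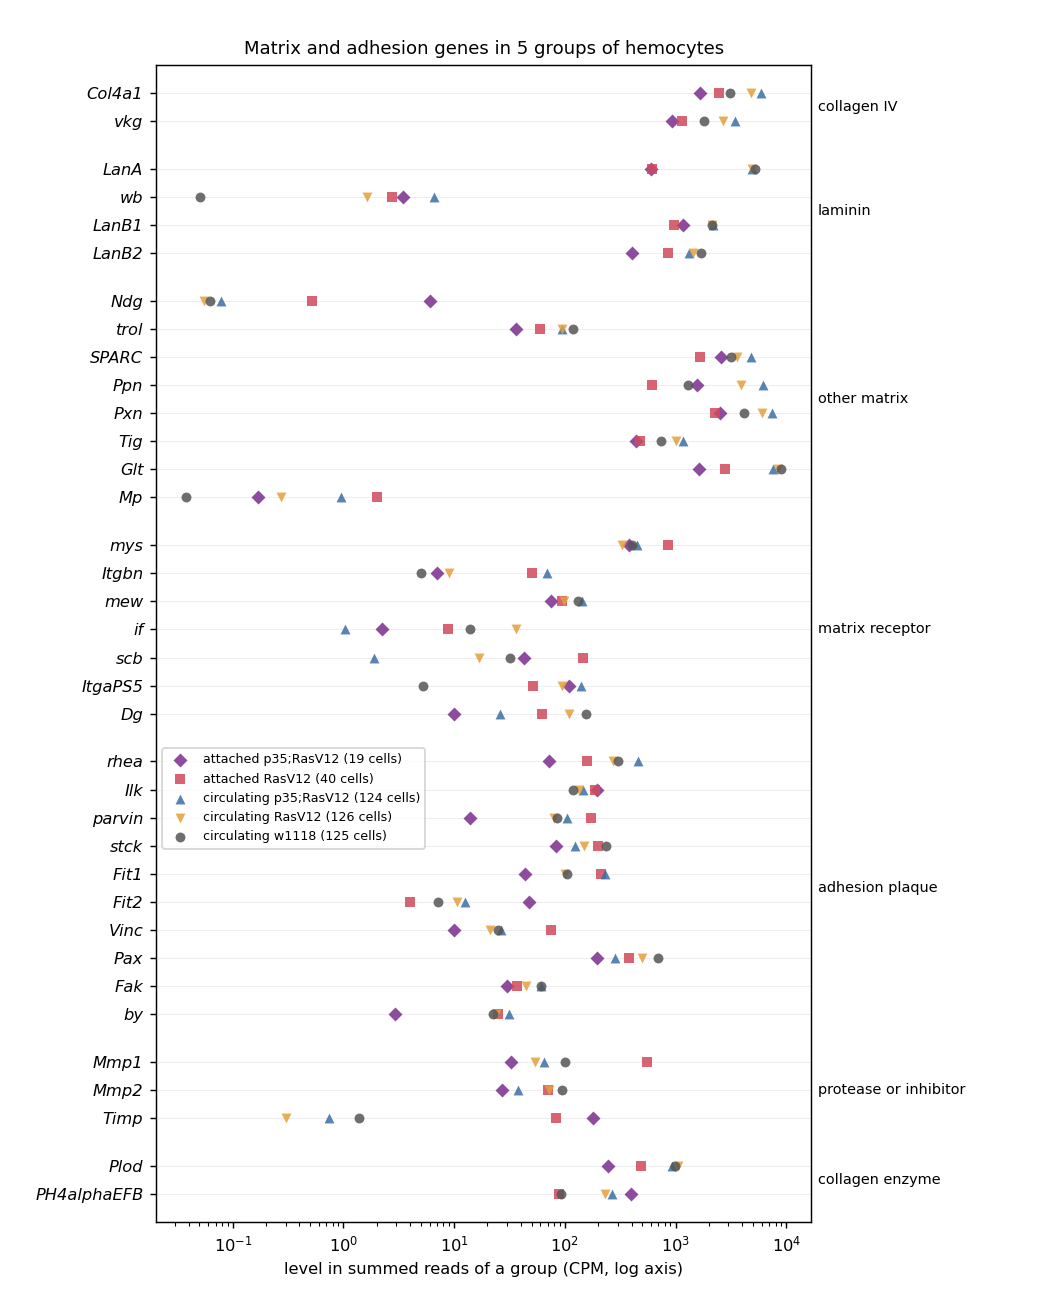
Level of each of the 36 genes in the summed reads of the 5 groups, in CPM on a log axis, ordered by role. Matrix genes such as Glt and Pxn lie near the right end in all groups, whereas wb, Ndg and Mp lie below 7 CPM in every group and Timp lies near 1 CPM or below in circulating cells.

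The genes wb, Ndg and Mp were too low for the comparisons of ratios, which used genes with a mean of at least 5 CPM over the groups. The second laminin alpha chain wb had 3.47 and 2.75 CPM in the attached genotypes and 6.60, 1.64 and 0.0502 CPM in the circulating genotypes. Its reads came from few cells, 9 of 124 cells (7.26%), 5 of 126 cells (3.97%) and 2 of 125 cells (1.60%) in the circulating genotypes. Nidogen (Ndg), which links laminin to collagen IV, had 6.07 CPM in attached p35;RasV12 cells, of which 99.2% came from 1 cell, 0.522 CPM in attached RasV12 cells and 0.0777, 0.0546 and 0.0627 CPM in the circulating genotypes. Multiplexin (Mp), a homolog of collagens XV and XVIII, had at most 1.99 CPM, in attached RasV12 cells, and a read in 1 of 125 cells (0.800%) in circulating w1118. All other 33 members passed.

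Ratios of the 33 genes were called when they were past 2-fold, and their counts stand beside the share of all 6850 genes tested that were past 2-fold in the same direction. In circulating RasV12 over circulating w1118 cells 4 genes were higher and 1 lower, where the shares of all genes were 9.27% higher and 3.09% lower. In circulating p35;RasV12 over circulating w1118 cells 5 were higher and 5 lower, beside 14.8% and 6.31% of all genes. In circulating p35;RasV12 over circulating RasV12 cells 3 were higher and 3 lower, beside 4.95% and 3.99% of all genes. Between the attached groups, p35;RasV12 over RasV12, 5 were higher and 14 lower, beside 15.4% and 27.7% of all genes. For attached over circulating RasV12 cells the counts were 8 and 12, beside 12.3% and 26.0%, and for attached over circulating p35;RasV12 cells 4 and 18, beside 14.0% and 40.4%. The share of the 33 genes stood above that of all genes for genes lower in circulating p35;RasV12 over w1118 (15.2%), lower between the attached groups (42.4%), higher or lower in attached over circulating RasV12 (24.2% and 36.4%) and lower in attached over circulating p35;RasV12 cells (54.5%), and near it in the others apart from circulating p35;RasV12 over RasV12. There it was 9.09% each way, but 1 of the 3 higher genes was Timp, which was also the 1 gene lower in RasV12 over w1118. Timp passed the filter on level through the attached groups and had 57, 22 and 111 reads in the circulating genotypes. In attached RasV12 cells low in glue or fat body reads, the lower share over circulating RasV12 fell below that of all genes, as given further on. Comparisons that use the same group share its reads and are not independent.

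The median log2 ratio of the 33 genes was -0.08, 0.13 and 0.26 in the circulating comparisons (RasV12 over w1118, p35;RasV12 over w1118, p35;RasV12 over RasV12), where that of all genes was 0.12, 0.17 and 0.05. It was -0.78 between the attached groups, -0.74 for attached over circulating RasV12 and -1.37 for attached over circulating p35;RasV12 cells, beside -0.26, -0.41 and -0.68 for all genes. Scaling by TMM factors (trimmed mean of M-values) moved every log2 ratio by -0.11, -0.21, -0.10, 0.31, 0.36 and 0.77 in the 6 comparisons, in the order of the counts above. On that scale the genes past 2-fold split into 4 higher and 3 lower for RasV12 over w1118 (beside 8.23% and 3.58% of all genes) and 4 higher and 7 lower for p35;RasV12 over w1118 (11.7% and 8.41%) in circulation. Between the attached groups the split was 5 higher and 10 lower (21.6% and 20.8%), and for attached over circulating cells 6 higher and 11 lower in p35;RasV12 (25.7% and 21.9%) and 8 higher and 7 lower in RasV12 (16.2% and 15.4%).

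**Figure D2:**
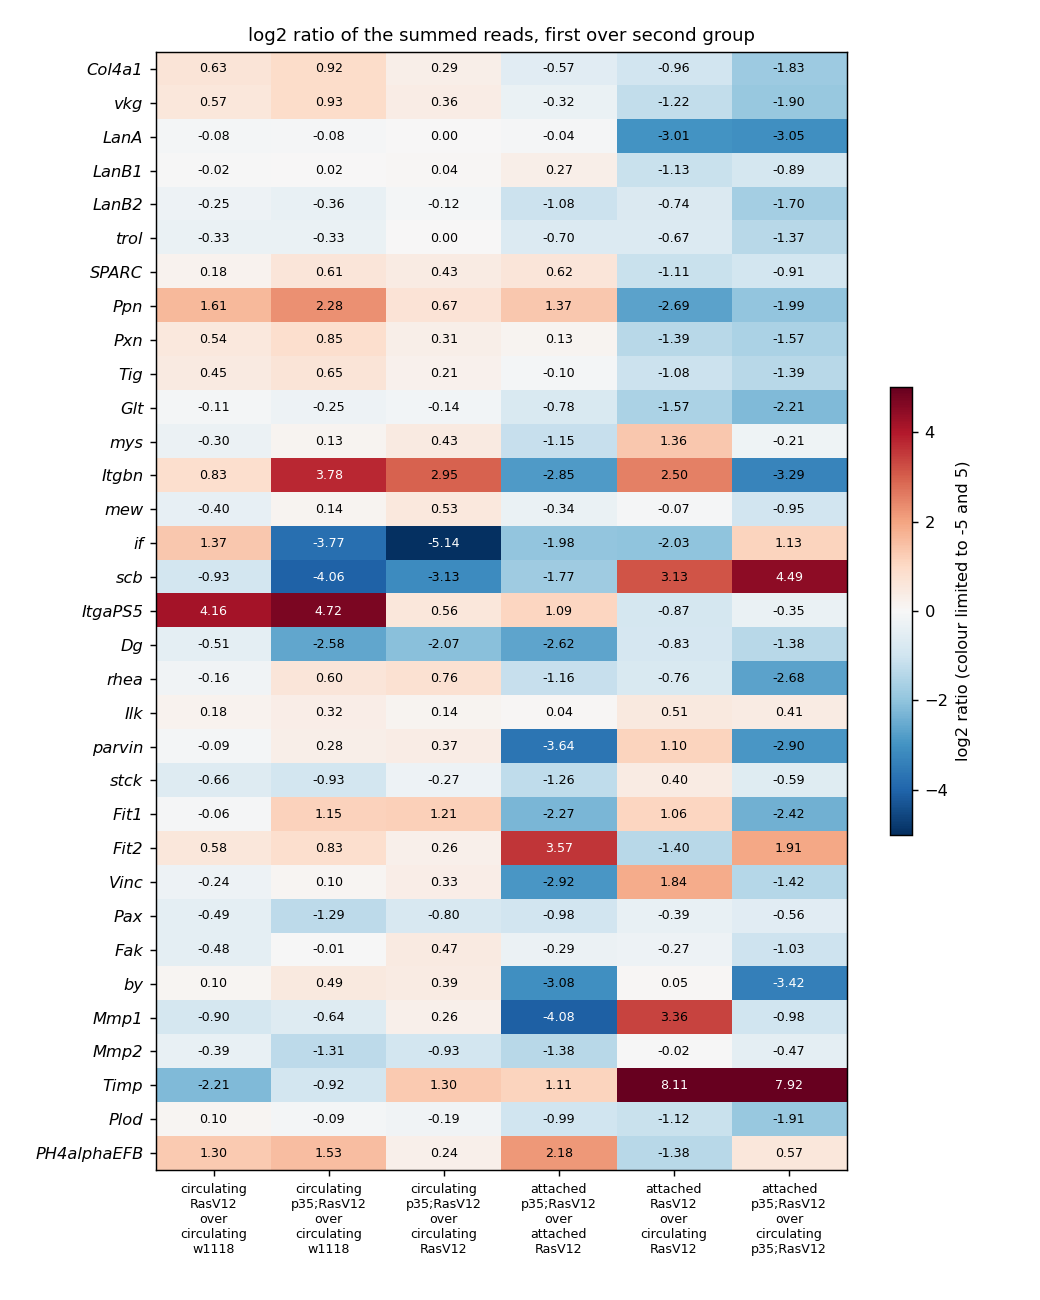
Log2 ratio of the summed reads for the 33 genes that passed the filter (rows) in the 6 comparisons (columns), first over second group, with the value printed in each cell. Among circulating cells most values lie between -1 and 1, with Ppn, PH4alphaEFB and several receptors outside, and in both columns of attached over circulating cells the collagen IV, laminin and other matrix genes shown lie below 0 (LanA -3.01 and -3.05).

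Collagen IV was higher in circulating cells of both tumor genotypes, without reaching 2-fold in the main setting. Its chains are encoded by Col4a1 (FBgn0000299, chromosome 2L from 5029609 to 5037279 of the Dm6 assembly) and vkg (FBgn0016075, chromosome 2L from 5012144 to 5028191), which lie head to head with 1417 bases between them. Col4a1 had 1.67, 5913 and 14611 CPM (lowest, median and highest cell) in circulating p35;RasV12, 786, 5135 and 9546 CPM in RasV12 and 500.4, 3069 and 10732 CPM in w1118 cells. The medians stood in this order and the ranges overlapped. The log2 ratio to w1118 was 0.92 and 0.63 in the tumor genotypes, and that of vkg was 0.93 and 0.57. A stricter filter on cells, described further on, left only 17, 12 and 6 cells of the circulating genotypes. With it the ratios were past 2-fold, at 1.398 and 1.085 for Col4a1 and 1.513 and 1.07 for vkg. The plasmatocyte genes outside the module stood higher too, at 14889 and 11925 CPM in the tumor genotypes, against 7793 CPM in w1118, and their part was not tested. In attached cells Col4a1 stood at 33.1, 1161 and 4744 CPM in p35;RasV12 and 18.5, 1552 and 9031 CPM in RasV12, and the log2 ratio of attached over circulating cells was -1.83 and -0.96 in these genotypes. None of the 19 attached p35;RasV12 cells lay above the median of their circulating counterparts. Per length, Col4a1 exceeded vkg by 1.89-, 2.26-, 1.80-, 1.90- and 1.82-fold in the same order of the 5 groups, so that the ratio of the chains was steadier than their levels.

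Across cells of 1 group, Col4a1 and vkg went together, with Spearman's rho of 0.76 and 0.86 in the attached genotypes (19 and 40 cells) and 0.68, 0.84 and 0.82 in the circulating genotypes (124, 126 and 125 cells). Cells of a group may share an animal, and the rho of Col4a1 with the number of reads of a cell lay between -0.19 and 0.04. Among 5736 genes ranked by the lowest rho with Col4a1 over the circulating genotypes, the 5 most alike were vkg (0.68), Ppn (0.57), Hml (0.53), Pxn (0.53) and NtR (0.49), of which vkg, Ppn and Pxn belong to the module. Of the enzymes that modify collagen, the lysyl hydroxylase gene Plod had a rho with Col4a1 of 0.29, 0.28 and 0.16 in the circulating genotypes, and the prolyl hydroxylase gene PH4alphaEFB one of -0.02, 0.45 and 0.26.

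The collagen enzymes differed from each other. PH4alphaEFB (FBgn0039776, chromosome 3R from 30466050 to 30485799), the alpha subunit of a prolyl hydroxylase that stabilizes the collagen helix, had 0, 237 and 838 CPM in circulating p35;RasV12, 0, 198 and 1271 CPM in RasV12 and 0, 70.2 and 472 CPM in w1118 cells. In the tumor genotypes 111 of 124 and 99 of 126 cells lay above the w1118 median, although the ranges overlapped. The log2 ratios to w1118 were 1.53 (1.49 to 1.57) and 1.30 (1.26 to 1.34), and stayed past 2-fold in every alternative (1.32 to 1.61 and 1.19 to 2.23). Reads of PH4alphaEFB were found in 121 of 124 cells (97.6%), 119 of 126 cells (94.4%) and 93 of 125 cells (74.4%) of the circulating genotypes, and after thinning each cell to 420000 reads in 97.3%, 93.6% and 73.9%. Plod, which hydroxylates collagen lysines, stayed at 929, 1062 and 991 CPM in these groups, and its log2 ratios to w1118 were -0.09 and 0.10.

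The laminin chains were nearly level in circulation. LanA (FBgn0002526, chromosome 3L from 6203831 to 6218022), an alpha chain, had 2.60, 4864 and 8936 CPM in p35;RasV12, 2209.5, 4615 and 14924 CPM in RasV12 and 1238, 5098 and 9520.3 CPM in w1118 cells, and log2 ratios to w1118 of -0.08 and -0.08. LanB1, the beta chain, had 2181, 2118 and 2144 CPM and LanB2, the gamma chain, 1313, 1424 and 1689 CPM in the circulating genotypes. None of the 3 was past 2-fold in a circulating comparison. In circulation their levels went together less closely than those of the collagen chains, with a rho of LanA and LanB1 of 0.50, 0.03 and 0.28 in the circulating genotypes. In the attached genotypes it was 0.79 and 0.78.

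Attached cells held much less LanA than circulating cells. It stood at 7.06, 458 and 2041 CPM in attached p35;RasV12 and 6.45, 509 and 2081 CPM in attached RasV12 cells. All 40 attached RasV12 cells lay below the lowest circulating RasV12 cell (2209.5 CPM), and none of the 19 attached p35;RasV12 cells reached the median of their circulating counterparts. The log2 ratios were -3.01 (-3.01 to -3.00) in RasV12 and -3.05 (-3.06 to -3.04) in p35;RasV12, and ran over -3.04 to -2.65 and -3.32 to -2.28 in the alternatives. LanB1 and LanB2 were less far apart between locations, with log2 ratios of -1.13 and -0.74 in RasV12 and -0.89 and -1.70 in p35;RasV12. Per length, LanA was above LanB1 in the circulating genotypes (by 1.22-, 1.25- and 1.31-fold) and below it in the attached genotypes (ratios of 0.273 and 0.340).

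Papilin (Ppn, FBgn0003137, chromosome 3R from 28520665 to 28540324), a large proteoglycan-like matrix protein, differed most in circulating cells among the matrix proteins whose genes passed the filter on level. It had 5.19, 6210.3 and 14144 CPM in p35;RasV12, 1.48, 4090.5 and 11856 CPM in RasV12 and 0, 389 and 13050 CPM in w1118 cells. Of the tumor genotypes 120 of 124 and 94 of 126 cells lay above the w1118 median, while the full ranges overlapped from end to end. The log2 ratios to w1118 were 2.28 (2.27 to 2.29) and 1.61 (1.60 to 1.62), with 2.07 to 2.45 and 1.50 to 2.13 over the alternatives, and p35;RasV12 over RasV12 was 0.67. The level in w1118 rested partly on few cells, since 1 cell held 10.1% of the Ppn reads of that group.

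Peroxidasin (Pxn), a matrix peroxidase that crosslinks collagen IV, stood at 7452, 6014 and 4138 CPM in the circulating genotypes, with log2 ratios to w1118 of 0.85 and 0.54. SPARC, which binds collagen IV, had 4803, 3575 and 3156 CPM, and tiggrin (Tig), an integrin ligand, 1162, 1008 and 738 CPM in the same order. Glt went the other way with 7609, 8382 and 9042 CPM, and trol had 94.2, 94.1 and 118 CPM. Cell by cell, SPARC ran over 3.34, 4897 and 8424 CPM, 672, 3607 and 7189 CPM and 272, 2878 and 8411 CPM (lowest, median and highest) and Glt over 1.60, 7706 and 17946 CPM, 317, 8468 and 16045 CPM and 11.9, 9229 and 16026 CPM, with wide overlap between genotypes. None of these 5 genes was past 2-fold between circulating groups. Between locations SPARC, Ppn, Pxn, Tig and Glt were past 2-fold lower in attached than in circulating RasV12 cells, with log2 ratios from -2.69 for Ppn to -1.08 for Tig. In p35;RasV12 trol, Ppn, Pxn, Tig and Glt were past 2-fold lower, from -2.21 for Glt to -1.37 for trol. With TMM factors SPARC (-0.74) and Tig (-0.72) fell short of 2-fold in RasV12. So did trol (-0.60), Pxn (-0.80) and Tig (-0.62) in p35;RasV12, while Ppn and Glt stayed past it in both. In attached RasV12 cells at or below the median share of salivary gland glue reads, SPARC (-0.82), Pxn (-0.97) and Tig (-0.58) fell short. The named genes of p35;RasV12 stayed past 2-fold in cells chosen this way.

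Among the members that passed the filter on level, the matrix receptors held the largest ratios between circulating genotypes. Integrin alpha ItgaPS5 (FBgn0034880, chromosome 2R from 23556672 to 23560263) had 139 CPM in p35;RasV12, 94.1 CPM in RasV12 and 5.27 CPM in w1118 cells. The median cell had no read in any of these groups, and the highest cells had 1423, 1977 and 193 CPM. Reads were found in 45 of 124 cells (36.3%), 39 of 126 cells (31.0%) and 10 of 125 cells (8%) of these groups, and after thinning in 35.4%, 28.2% and 8.11%. Above the highest w1118 cell lay 23 of 124 and 17 of 126 cells of the tumor genotypes, so the gene was high in a minority of their cells. The log2 ratios to w1118 were 4.72 (4.58 to 4.87) and 4.16 (4.02 to 4.30), and remained within 4.51 to 5.21 and 3.91 to 4.49 over the alternatives.

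The alpha chains scb (FBgn0286785, chromosome 2R from 15248784 to 15258498) and if (FBgn0001250, chromosome X from 16752189 to 16783434) were nearly absent from circulating p35;RasV12 cells. For scb the level was 1.90, 16.6 and 31.6 CPM in the circulating genotypes, with reads in 4 of 124 cells (3.23%), 30 of 126 cells (23.8%) and 47 of 125 cells (37.6%). The median cell had no scb read in these groups, and the highest cells had 144, 358 and 531 CPM. For if the level was 1.02, 36.0 and 14.0 CPM, with reads in 4 of 124 cells (3.23%), 35 of 126 cells (27.8%) and 38 of 125 cells (30.4%). Thinned shares of scb were 3.54%, 24.5% and 36.0% and those of if 3.54%, 30% and 29.7%, so that p35;RasV12 stayed lowest at equal depth, whereas the shares of if in RasV12 and w1118 lay close together. The log2 ratios of p35;RasV12 over w1118 were -4.06 (-4.31 to -3.82) for scb and -3.77 (-4.12 to -3.44) for if, and over RasV12 -3.13 (-3.38 to -2.88) and -5.14 (-5.48 to -4.82). Leaving out the top cell of each group moved the ratios to -4.95 and -4.57 over w1118 and -4.00 and -6.12 over RasV12, further from 0. RasV12 over w1118 gave -0.93 for scb, short of 2-fold, and 1.37 for if.

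Dystroglycan (Dg, FBgn0034072, chromosome 2R from 16081176 to 16098564), a laminin receptor outside the integrin family, was also lower in circulating p35;RasV12 cells. It had 0, 3.88 and 155 CPM in p35;RasV12, 0, 68.9 and 403 CPM in RasV12 and 0, 134 and 680.1 CPM in w1118 cells. In p35;RasV12 2 of 124 cells lay above the w1118 median, and 19 of 124 above the RasV12 median. The log2 ratios were -2.58 (-2.65 to -2.51) over w1118 and -2.07 (-2.15 to -2.00) over RasV12, and both stayed past 2-fold in every alternative. Reads of Dg were in 74 of 124 cells (59.7%), 104 of 126 cells (82.5%) and 116 of 125 cells (92.8%) of the circulating genotypes.

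Among the beta chains, mys, the common partner of the alpha chains, stood at 445, 329.5 and 407 CPM in the sums of the circulating genotypes. The second beta chain Itgbn (FBgn0010395, chromosome 2L from 21053033 to 21058044) had 69.3, 8.98 and 5.06 CPM, with reads in 54 of 124 cells (43.5%), 18 of 126 cells (14.3%) and 10 of 125 cells (8%). The median cell had no Itgbn read, and 11 of 124 p35;RasV12 cells lay above the highest w1118 cell (185 CPM). Its log2 ratio was 3.78 (3.63 to 3.93) for p35;RasV12 over w1118 and 2.95 (2.83 to 3.07) over RasV12, and 0.83 for RasV12 over w1118. Of its counted exon length 10.2% overlaps CG9265, and the counting did not use strand. The alpha chain mew, a laminin-binding subunit, had 143, 99.0 and 130.3 CPM and was not past 2-fold.

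The makeup of the alpha chains per length differed between groups. In circulating w1118 cells mew made up 70.4% of the summed RPKM of mew, if, scb, ItgaPS4 and ItgaPS5, followed by scb with 17.8%. In circulating RasV12 cells ItgaPS5 was first with 50.8% and mew had 32.9%. In circulating p35;RasV12 cells ItgaPS4, an alpha chain outside the module that serves as a lamellocyte marker, took 52.3%, ItgaPS5 29.0% and mew 18.4%, but 5 of the 124 cells held 99.9% of the ItgaPS4 reads. Attached p35;RasV12 cells had ItgaPS5 first (59.5%, and 89.2% of the reads came from 1 cell), and attached RasV12 cells scb (44.8%), ahead of mew (27.9%) and ItgaPS5 (24.7%).

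**Figure D3:**
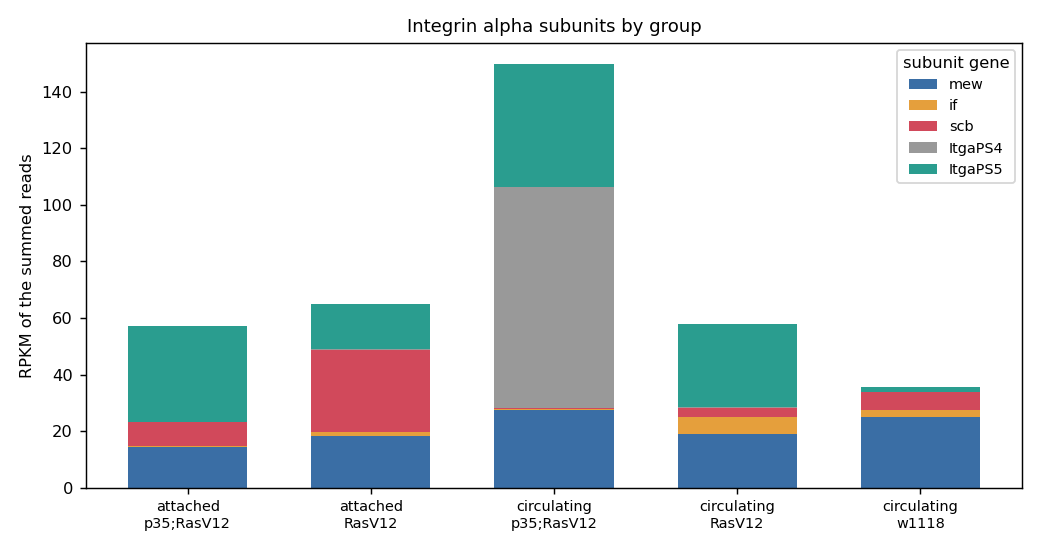
Summed RPKM of the 5 integrin alpha chains, stacked, in the 5 groups. The bar of circulating p35;RasV12 cells is the tallest through ItgaPS4, of which 5 cells hold 99.9% of the reads, mew is the main chain in circulating w1118 cells (70.4%), and scb is the largest segment in attached RasV12 cells (44.8%).

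**Figure D4:**
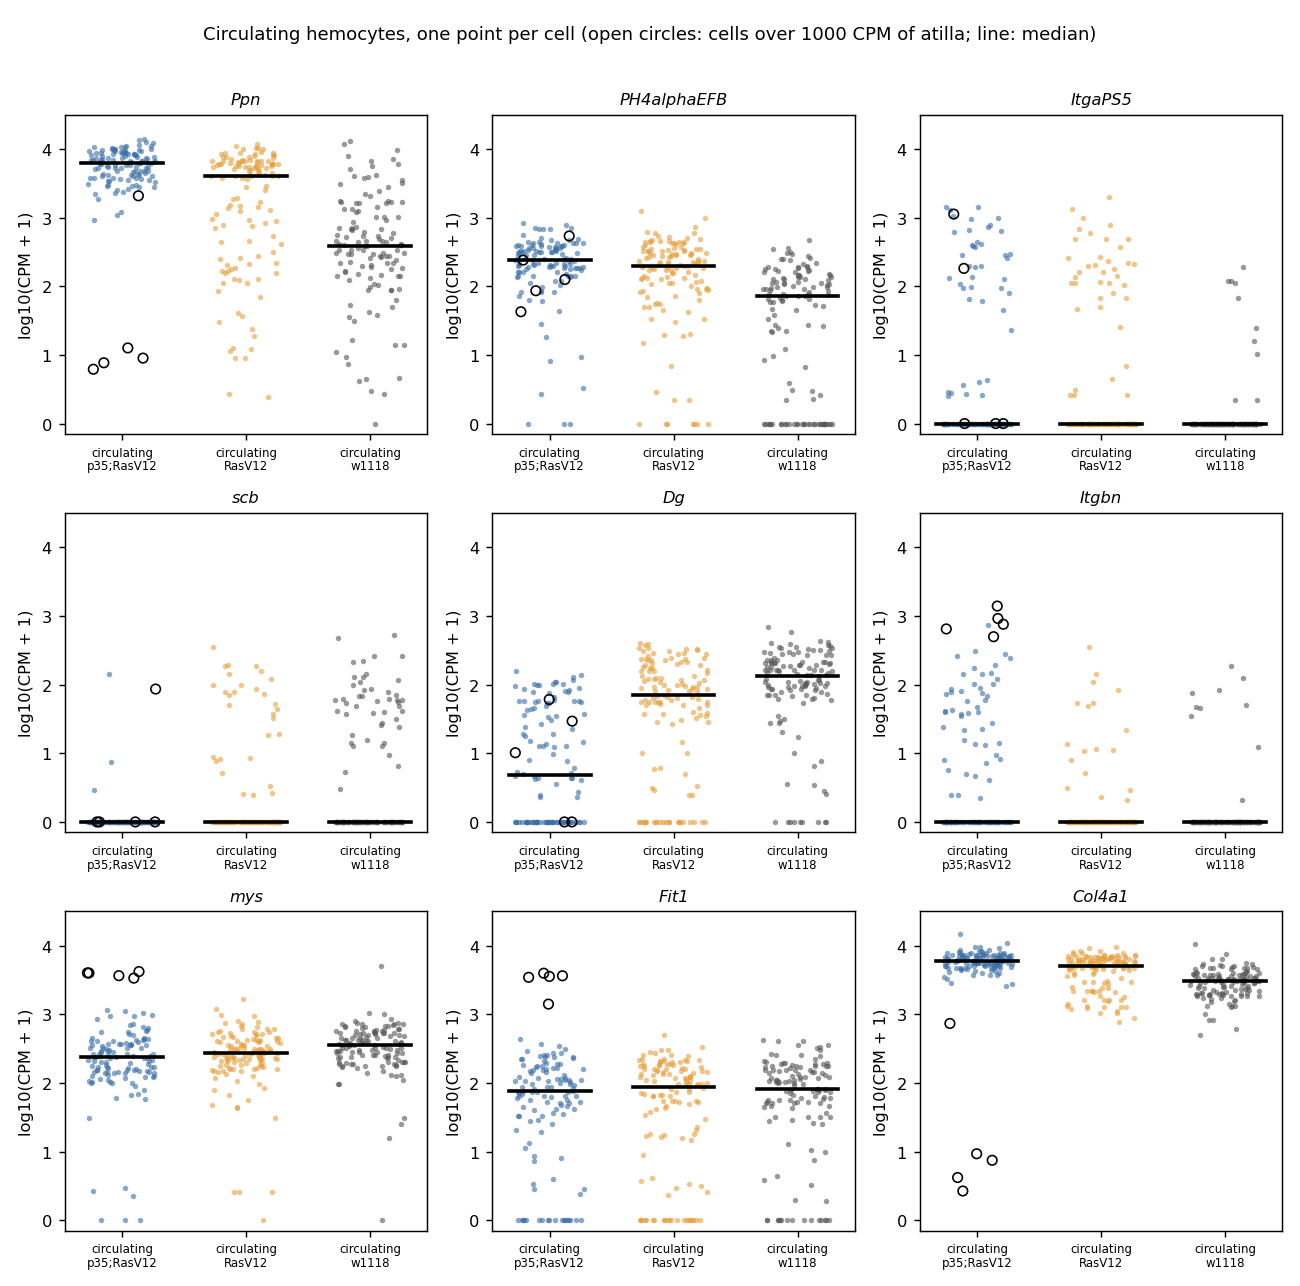
Level of 9 members in each circulating cell, as log10 of CPM plus 1, by genotype (filled points: cells, line: median, open circles: the 5 cells with over 1000 CPM of atilla). Ppn and PH4alphaEFB are shifted upwards in both tumor genotypes, Dg is shifted downwards in p35;RasV12, ItgaPS5, scb and Itgbn are read in a minority of cells, and the open circles lie above the other cells of that genotype for mys and Fit1 and below nearly all of them for Col4a1.

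The only cells with over 1000 CPM of atilla were 5 circulating p35;RasV12 cells (atilla is a marker of lamellocytes, flat blood cells that encapsulate foreign bodies). Several adhesion transcripts stood far higher in them than in the rest of the group. In these 5 cells mys had 3377, 4012 and 4211 CPM (lowest, median and highest), against a median of 233 and a highest value of 1167 CPM in the other 119 cells of the group. Talin (rhea), which ties integrins to actin, had 1725, 3730.5 and 5200.5 CPM, against a median of 263 and a highest value of 931 CPM. The kindlin gene Fit1, whose product activates integrins, had 1412, 3575 and 3984 CPM, against a median of 72.3 and a highest value of 441 CPM. For 4 of the 36 members (11.1%), mys, rhea, Fit1 and the laminin chain wb, all 5 cells lay above all of the rest, and for 5 (13.9%) below all of it, beside 0.847% and 0.190% of all genes tested. The 36 include wb, which did not pass the filter on level, so these shares are of unlike sets of genes. A gene can lie below all of the other 119 cells only if each of them has a read of it. The shares below therefore favour abundant genes, and the sets were not matched for level. Also, mys is itself on the lamellocyte list used here, and the 5 cells were chosen by a lamellocyte marker. The 5 cells held 59.2% of the Fit1, 54.0% of the Itgbn, 37.9% of the mys and 99.9% of the ItgaPS4 reads of the group, and 88.6% of those of wb.

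The same cells had little of the abundant matrix transcripts. Col4a1 reached 1.67, 6.49 and 737 CPM in them against a median of 5973 CPM in the others, LanA 2.60, 4.80 and 1407 CPM against 4903 CPM, Pxn 7.79, 8.32 and 59.1 CPM against 7999.9 CPM and SPARC 3.34, 9.99 and 628 CPM against 4997 CPM. The low matrix genes wb and Mp went the other way, with 135 and 20.6 CPM in the summed reads of the 5 cells against 0.785 and 0.0541 CPM in the others. For Mp the median of the 5 cells was 0. PH4alphaEFB differed less, with 218 against 271 CPM. The plasmatocyte marker Hml stood at 8.32, 13.4 and 285 CPM in the 5 cells against a median of 9561 CPM in the others. The lamellocyte list without the module's mys (atilla, PPO3, ItgaPS4 and Treh) summed to 781, 98.8 and 89.7 CPM in the circulating genotypes, over ranges per cell of 0 to 25070, 0 to 594 and 0 to 989 CPM, and no gene of the list was at 0 in any group. Without the 5 cells the log2 ratio of Fit1 became -0.08 over w1118 and -0.02 over RasV12, that of Itgbn 2.72 and 1.89, that of scb -4.83 and -3.91 and that of Dg -2.56 and -2.05. The count past 2-fold became 4 higher and 8 lower over w1118 (beside 14.3% and 6.95% of all genes) and 1 higher and 6 lower over RasV12 (4.15% and 4.53%).

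The adhesion plaque is the protein complex on the inner face of integrins. Of its 10 genes, none was past 2-fold in circulating RasV12 over w1118 (beside 9.27% higher and 3.09% lower of all genes), with log2 ratios from -0.66 for stck, the gene of the adaptor PINCH, to 0.58 for the kindlin Fit2. In p35;RasV12 over w1118, paxillin (Pax, FBgn0041789, chromosome 2L from 19400753 to 19426596), an adaptor protein, was lower and Fit1 higher, beside 6.31% and 14.8% of all genes. Pax had 0, 233 and 2206 CPM in p35;RasV12, 0, 372 and 1894 CPM in RasV12 and 15.2, 715 and 1709.7 CPM in w1118 cells, and 6 of 124 p35;RasV12 cells lay above the w1118 median. Its log2 ratio was -1.29 (-1.32 to -1.27) over w1118 and -0.80 over RasV12. Without the 5 cells high in atilla, which held 19.1% of the Pax reads of the group, it was -1.54 and -1.05. Under the stricter filter, which left few cells, the ratio was -0.66 and -0.16, short of 2-fold. Fit1 had 1.15 over w1118 and 1.21 over RasV12 in the sums, but a median per cell of 74.8, 87.7 and 81.1 CPM in the circulating genotypes. The integrin-linked kinase gene Ilk had 146, 133 and 117 CPM, focal adhesion kinase (Fak) 61.1, 44.2 and 61.5 CPM and vinculin (Vinc) 26.5, 21.0 and 24.7 CPM in the circulating genotypes.

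Matrix metalloproteinases were low in circulation. Mmp2, a membrane-anchored protease, had 0, 17.8 and 376 CPM in p35;RasV12, 0, 35.9 and 310 CPM in RasV12 and 0, 75.4 and 455 CPM in w1118 cells, and log2 ratios to w1118 of -1.31 (-1.38 to -1.25) and -0.39. Mmp1, a secreted protease, had 64.9, 54.1 and 101 CPM, and 1 cell held 30.6% of the w1118 reads. Timp, the inhibitor of both, lies inside the gene Syn and had 0.738, 0.300 and 1.39 CPM, from 4 of 124 cells (3.23%), 2 of 126 cells (1.59%) and 4 of 125 cells (3.20%) in the circulating genotypes. Its ratios past 2-fold (-2.21 for RasV12 over w1118 and 1.30 for p35;RasV12 over RasV12) rest on 57, 22 and 111 reads in these groups.

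Between the attached groups 14 of 33 genes were lower in p35;RasV12 than in RasV12 and 5 higher, beside 27.7% and 15.4% of all genes. The lower genes were 5 of 7 receptors, 6 of 10 plaque genes, LanB2, Mmp1 and Mmp2, and the higher genes were ItgaPS5, Fit2, Ppn, PH4alphaEFB and Timp. A difference between roles was not tested. With no filter on cells, which added 2 cells to attached p35;RasV12 and none to attached RasV12, 12 were lower and 5 higher. Mmp1 (FBgn0035049, chromosome 2R from 24671294 to 24688184) was the lowest by ratio. It had 0.484, 5.62 and 703 CPM in attached p35;RasV12 and 5.90, 256 and 3359 CPM in attached RasV12 cells. Of the p35;RasV12 cells 1 of 19 lay above the RasV12 median and 10 of 19 below the lowest RasV12 cell. Mmp2 had 0.217, 2.56 and 184 CPM and 0, 14.9 and 1571 CPM in the attached genotypes, a log2 ratio of -1.38 and 65.6% of the reads of the first in 1 cell. LanB2 had 6.97, 297 and 1366 CPM and 4.84, 522 and 2203 CPM and a log2 ratio of -1.08 (-0.95 with no filter on cells), with overlapping ranges. For Mmp1 the log2 ratio was -4.08 (-4.12 to -4.05) and ran over -4.78 to -2.86 in the alternatives.

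Parvin, an adaptor that binds integrin-linked kinase, had 0.271, 2.99 and 162 CPM in attached p35;RasV12 and 0.961, 171 and 455 CPM in attached RasV12 cells, and no p35;RasV12 cell lay above the RasV12 median. Its log2 ratio was -3.64 (-3.69 to -3.59), and 22.5% of its exon length overlaps Alr and an antisense RNA. Vinculin (Vinc), which reinforces the link to actin, had 0, 3.62 and 73.8 CPM and 0.618, 55.3 and 375 CPM in these groups, a log2 ratio of -2.92 (-2.98 to -2.86), and 1 of 19 p35;RasV12 cells above the RasV12 median. Tensin (by), another actin link, had 0, 0.312 and 24.1 CPM and 0, 2.64 and 371 CPM and a log2 ratio of -3.08 (-3.20 to -2.97), with overlapping ranges. Fit1 had 0.217, 31.0 and 229 CPM and 3.00, 150.4 and 785 CPM and a log2 ratio of -2.27 (-2.30 to -2.24), with 8 of 19 p35;RasV12 cells below the lowest RasV12 cell. Of the remaining plaque genes, rhea had 1.09, 67.8 and 283 CPM and 0.604, 176 and 744 CPM in the attached genotypes and a log2 ratio of -1.16 (-0.86 with TMM factors). The PINCH gene stck had 1.69, 84.0 and 199 CPM and 1.11, 167 and 636 CPM and a log2 ratio of -1.26 (-0.95 with TMM factors), with overlapping ranges for both genes. Pax (-0.98), Fak (-0.29) and Ilk (0.04) were not past 2-fold.

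The receptors that were lower in attached p35;RasV12 cells were Itgbn, Dg, if, scb and mys. Dg had 0, 0.979 and 87.0 CPM in p35;RasV12 and 0.101, 26.3 and 222 CPM in RasV12 cells and a log2 ratio of -2.62 (-2.68 to -2.56). For scb the values were 0, 2.90 and 499.7 CPM and 0.705, 75.6 and 664 CPM, and the log2 ratio -1.77 (-1.80 to -1.74). Itgbn had 0, 0.420 and 138 CPM and 0.0339, 8.84 and 627 CPM with a log2 ratio of -2.85 (-2.92 to -2.78), which was -0.61 and no longer past 2-fold with no filter on cells, and mys 11.5, 339 and 1379 CPM and 7.14, 648 and 2791 CPM with -1.15 (-1.16 to -1.14). In all of these the ranges of the groups overlapped, and mys fell short of 2-fold with TMM factors (-0.84) and as a mean over cells (-0.94). The integrin alpha if had 0, 0.442 and 68.6 CPM and 0, 1.59 and 111 CPM and a log2 ratio of -1.98, and 72.1% of its p35;RasV12 reads came from 1 cell. Without the top cell of each group the ratio was -3.58 for if and -2.45 for scb, and with no filter on cells it was -0.50 for if, short of 2-fold. ItgaPS5 had 0.547, 3.73 and 787 CPM and 0, 1.64 and 621 CPM, and 16 of 19 of the cells of the first lay above the median of the second. Its log2 ratio was 1.09, but 0.31 as a mean over cells and -1.50 without the top cells.

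Beside ItgaPS5, the genes PH4alphaEFB, Fit2, Ppn and Timp were higher in attached p35;RasV12 cells. PH4alphaEFB had 3.67, 265 and 1398 CPM in p35;RasV12 and 0.699, 67.3 and 527 CPM in RasV12 cells, and 15 of 19 p35;RasV12 cells lay above the RasV12 median. Its log2 ratio was 2.18 (2.17 to 2.20), within 1.87 to 2.98 over the alternatives. Fit2 had 0, 0.821 and 389.9 CPM and 0, 0.203 and 89.1 CPM with a log2 ratio of 3.57 (3.50 to 3.64), and 1 cell held 79.2% of the reads in p35;RasV12. Without the top cell of each group its ratio was 2.17. Ppn had 13.1, 835 and 5200.2 CPM and 8.06, 409 and 2974 CPM with a log2 ratio of 1.37 (1.36 to 1.37), and 0.94 without those cells. Timp had 0.465, 8.02 and 1166 CPM and 0.604, 44.6 and 415 CPM with a log2 ratio of 1.11 (1.09 to 1.13), and 0.31 without those cells, while its median was lower in p35;RasV12, where 1 cell held 52.2% of the reads.

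**Figure D5:**
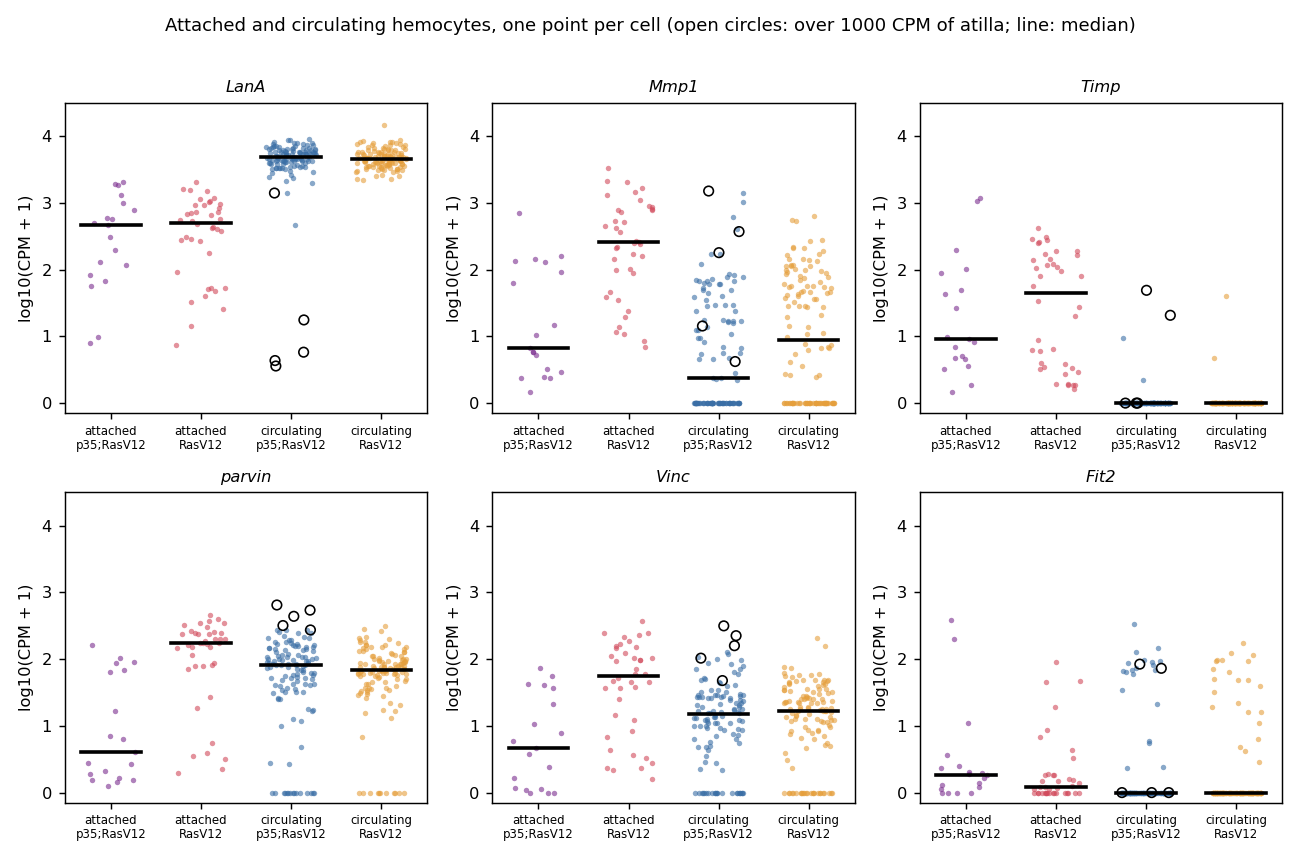
Level of 6 members in each attached and circulating cell of the tumor genotypes, as log10 of CPM plus 1 (filled points: cells, line: median, open circles: cells with over 1000 CPM of atilla). Attached cells lie mostly below circulating cells for LanA and above them for Timp, and attached p35;RasV12 cells lie mostly below attached RasV12 cells for Mmp1, parvin and Vinc.

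Genes of other cell types also differed between the attached groups, in both directions. PPO1, PPO2, lz, CG17109 and peb, genes of crystal cells, summed to 15918 CPM in attached p35;RasV12 and 511 CPM in attached RasV12 cells (32.7 to 76914 and 0.686 to 9392 CPM per cell). The 8 fat body genes (apolpp, Adh, Fbp1, Fbp2, Lsp2, Lsp1alpha, Lsp1beta and Lsp1gamma) summed to 47019 and 24078 CPM (2181 to 121341 and 1272 to 158251 CPM per cell), the 6 glue genes of the salivary gland (Sgs8, Sgs7, Sgs5, Sgs4, Sgs3 and Sgs1) to 20782 and 31725 CPM (632 to 108373 and 518 to 326261 CPM per cell) and the muscle genes Mhc, Mlc2, up, wupA and sls to 30.8 and 55.1 CPM (0 to 182 and 0 to 874 CPM per cell). No gene of these lists was at 0 in an attached group, and their part in the results was not tested except by leaving cells out. Without the cells above 5000 CPM of PPO1 and PPO2 together (6 of p35;RasV12 and 3 of RasV12), the log2 ratio of attached p35;RasV12 over RasV12 was -2.61 for Timp, -2.13 for ItgaPS5, 2.04 for Fit2, 0.76 for Ppn, -4.04 for Mmp1, -2.90 for parvin, -2.28 for Vinc, -1.47 for Fit1 and -2.02 for Itgbn. In the 10 attached p35;RasV12 and 20 attached RasV12 cells at or below the median share of fat body reads it was 2.09 for Timp, -2.59 for ItgaPS5, 2.98 for PH4alphaEFB, -4.78 for Mmp1 and -0.10 for Mmp2. Both exclusions were chosen after the data were seen.

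Between attached and circulating cells of a genotype, Timp (FBgn0025879, chromosome 3R from 10203875 to 10213007) had the highest ratio. It had reads in all 19 attached p35;RasV12 and all 40 attached RasV12 cells, with 0.465, 8.02 and 1166 CPM and 0.604, 44.6 and 415 CPM, against 4 of 124 cells (3.23%) and 2 of 126 cells (1.59%) in circulation. After thinning to 420000 reads the shares were 82.4% and 76.9% in the attached genotypes, against 3.54% and 0.909% in circulating ones. The log2 ratio was 7.92 (7.54 to 8.32) in p35;RasV12 and 8.11 (7.51 to 8.78) in RasV12, and its lowest value over the alternatives was 4.24, without the cells high in PPO1 and PPO2, and 7.76. Of its exon length 15.7% overlaps Syn, and the 17 wells of the attached set labelled _C, whose meaning the sources do not give, held 19.8 CPM.

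The integrin chain scb was higher in attached cells of both genotypes. Its log2 ratio of attached over circulating cells was 4.49 (4.25 to 4.73) and 3.13 (3.05 to 3.21) in the tumor genotypes, and its thinned share of cells was 70.6% and 94.9% in the attached genotypes, against 3.54% and 24.5% in circulating ones. Mmp1 had a log2 ratio of 3.36 (3.32 to 3.41) in RasV12, where 38 of 40 attached cells lay above the circulating median, and -0.98 in p35;RasV12, although there 16 of 19 lay above that median. As a mean over cells that second ratio was 0.34, and -0.51 without the 5 cells high in atilla, which held 30.9% of the circulating reads. The circulating p35;RasV12 median of Mmp1 was near the floor, at 1.25 CPM in the 119 cells without high atilla. Attached cells were read far deeper, so few reads place a cell above it. In RasV12 mys (1.36), Itgbn (2.50), Vinc (1.84), parvin (1.10) and Fit1 (1.06) were past 2-fold higher in attached cells. In p35;RasV12 the same genes had -0.21, -3.29, -1.42, -2.90 and -2.42, and the difference between genotypes was not tested. Without the 5 cells high in atilla they had 0.41, -2.24, -1.05, -2.68 and -1.19, and with no filter on cells Itgbn had -1.07. Above the circulating median lay 14 of 19 attached cells for mys and 16 of 19 for Itgbn, whose circulating median was 0. For Itgbn 1 read was enough, and attached cells were read far deeper. The talin gene rhea was -2.68 and by -3.42 in p35;RasV12, against -0.76 and 0.05 in RasV12. Fit2 was 1.91 and if 1.13 in p35;RasV12, but 0.05 and 0.40 without the top cell of each group, and if 2.62 with no filter on cells.

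The glue and fat body genes that were read in attached cells were nearly missing from circulating cells. The glue genes summed to 0.349, 0.478 and 0.0627 CPM in the circulating genotypes, with 4, 2 and 5 of the 6 genes at 0, and the fat body genes to 73.8, 50.8 and 48.5 CPM, with 0, 1 and 1 of the 8 genes at 0. Per cell the glue sum ran over 0 to 25.0, 0 to 20.6 and 0 to 9.31 CPM and the fat body sum over 0 to 3658, 0 to 1129.7 and 0 to 581 CPM. The sums of the plasmatocyte genes were also lower in attached cells, as given above, and the part of any of these in the ratios between locations was not tested. In the attached cells at or below the median share of glue reads, the log2 ratio of attached over circulating RasV12 cells was -2.67 for LanA, 7.76 for Timp, 2.89 for scb and 3.71 for Mmp1, and the count past 2-fold was 8 higher and 6 lower, beside 13.0% and 22.8% of all genes. The attached p35;RasV12 cells chosen in the same way gave -3.01 for LanA, 8.53 for Timp, 3.09 for scb and -0.84 for Mmp1, and 3 higher and 18 lower, beside 16.1% and 46.3%. Attached cells at or below the median share of fat body reads were chosen after the data were seen. They gave 8 higher and 7 lower in RasV12 (12.6% and 25.5%) and 5 higher and 20 lower in p35;RasV12 (16.4% and 38.4%). In RasV12 the share of members that were lower thus stood below that of all genes in both selections.

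Of 32 further genes of adhesion, matrix secretion and matrix modification, 31 were matched and 20 passed the filter on level. Past 2-fold in circulation were 1 higher and 1 lower in RasV12 over w1118 (beside 9.27% and 3.09% of all genes), 4 and 1 in p35;RasV12 over w1118 (14.8% and 6.31%) and 2 and 1 in p35;RasV12 over RasV12 (4.95% and 3.99%). Between the attached groups 0 were higher and 8 lower (15.4% and 27.7%), and for attached over circulating cells 2 and 9 in p35;RasV12 (14.0% and 40.4%) and 3 and 3 in RasV12 (12.3% and 26.0%). The glypican dally, a heparan sulfate proteoglycan, had 7.34, 5.05 and 0.904 CPM in the circulating genotypes, and log2 ratios to w1118 of 3.02 and 2.48. This gene passed the filter on level through the attached groups, and it was the 1 gene higher in RasV12 over w1118. Both ratios rest on 72 reads in w1118, found in 6.4% of cells, and 1 cell held 66.7% of them. The protease AdamTS-A had 2.38, 13.9 and 18.3 CPM, with -2.94 for p35;RasV12 over w1118 and -2.54 over RasV12. Rab10, a GTPase that directs basement membrane secretion in follicle cells, had 68.9, 21.3 and 27.1 CPM, with 1.35 and 1.69. Filamin (cher), an actin crosslinker, had 533, 332 and 228 CPM and 1.22 over w1118. ItgaPS4 had 263, 0.218 and 0.715 CPM, and in p35;RasV12 nearly all of its reads came from the 5 cells with high atilla. It passed the filter on level through that group, and it was the 1 gene lower in RasV12 over w1118, at 16 against 57 reads. ItgaPS4 was also counted in every other comparison. It was higher in circulating p35;RasV12 over w1118 and over RasV12, and lower between the attached groups, at 38 against 467 reads. It was also lower in attached over circulating p35;RasV12 cells and higher in attached over circulating RasV12 cells, at 467 against 16 reads.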

How the data were processed

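Single hemocytes were sequenced with Smart-seq2, a method that reads full-length polyA RNA. Per the labels and the study's methods, the authors aligned reads to the Dm6 genome with STAR 2.7.2 and deposited raw read counts per gene from featureCounts 2.0.0 (versions from the submitters' processing notes). The deposited counts come with gene identifiers, coordinates and exon lengths, and the counting did not use strand. Gene names were matched to the identifiers from a separate reference. Of 463 wells, 17 labelled _C and 5 without a genotype were left out. The annotation gives a genotype for 380 circulating and 61 attached cells, and a stricter filter modelled on the study's methods (200 to 4000 genes detected, mitochondrial share of at most 5%) leaves 35 circulating and 0 attached cells. Here 434 cells were kept, with 200 or more genes detected and a mitochondrial share of at most 10%. Doublets were not called. CPM were formed from the reads summed over the cells of a group, with exact Poisson intervals for levels and exact conditional binomial intervals for ratios. Ratios were formed for 6850 genes with a mean of at least 5 CPM over the groups, and past 2-fold was the threshold, with a floor of 3 counts where a group had 0. Shares of cells are of cells with at least 1 read, also after thinning to 420000 reads, which left 17 attached p35;RasV12, 39 attached RasV12, 113 circulating p35;RasV12, 110 circulating RasV12 and 111 circulating w1118 cells. Python 3.11.15, numpy 2.4.6, pandas 2.3.3, scipy 1.17.1, matplotlib 3.10.9 and, for TMM factors, R 4.3.3 with edgeR 4.0.16 were used. The formula of the log2 ratio was tested on simulated counts, and the other steps were not. All members were named, with values by cell for those past 2-fold between circulating or between attached genotypes and those with the highest levels, and related genes where past 2-fold between circulating genotypes. The members and gene lists were chosen with earlier results of these data known. Alternatives were other filters on cells and levels, a mean over cells, TMM factors, a 3-fold threshold, and leaving out single cells or cells with reads of other tissues.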

Additional observations from a re-analysis of the deposited data

Results flagged for a closer look

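Some members had ratios of opposite sign in 2 settings, and the difference between the settings was not tested in any instance, since each group is 1 sample. For p35;RasV12 over RasV12, Itgbn, a beta integrin chain, had a log2 ratio of -2.85 in attached and 2.95 in circulating cells, and the kindlin gene Fit1 -2.27 in attached and 1.21 in circulating cells. For attached over circulating cells, Itgbn had -3.29 in p35;RasV12 and 2.50 in RasV12, the alpha chain if 1.13 and -2.03, parvin -2.90 and 1.10, Fit1 -2.42 and 1.06, Fit2 1.91 and -1.40 and Vinc -1.42 and 1.84, in the same order. Of the circulating p35;RasV12 reads, 54.0% of Itgbn and 59.2% of Fit1 came from the 5 cells high in atilla. With no filter on cells Itgbn had -0.61 for attached p35;RasV12 over RasV12 and -1.07 for attached over circulating p35;RasV12 cells. In attached p35;RasV12 cells 1 cell held 72.1% of the if and 79.2% of the Fit2 reads. The 17 wells of the attached set labelled _C, which no comparison used, held 17998 CPM of the 36 genes together.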

How the results depend on the processing

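Of 1683 ratios of members under an alternative, 1587 kept their sign, and of 717 past 2-fold, 641 stayed past 2-fold in the same direction and 15 reversed. These totals include the setting without cells high in atilla, which removed no cell outside circulating p35;RasV12. In comparisons without that group its ratios equal the main values by construction. Under every setting 3 of 5 ratios past 2-fold held in circulating RasV12 over w1118, 7 of 10 in circulating p35;RasV12 over w1118, 2 of 6 in circulating p35;RasV12 over RasV12, 9 of 19 between the attached groups, 12 of 20 in attached over circulating RasV12 and 13 of 22 in attached over circulating p35;RasV12 cells. The stricter filter on cells (17 circulating p35;RasV12, 12 RasV12 and 6 w1118 cells) gave 14 genes past 2-fold in place of 5 for RasV12 over w1118 and 18 in place of 10 for p35;RasV12 over w1118, with log2 ratios of -8.73 (if) for RasV12 over w1118, -0.72 (Fit1) for p35;RasV12 over w1118, and -1.58 (Itgbn), 1.15 (if), -0.65 (Fit1) and -0.44 (Timp) for p35;RasV12 over RasV12. It left no attached cell and so no value there. A 3-fold threshold gave 3 for RasV12 over w1118, 6 for p35;RasV12 over w1118, 11 between the attached groups and 8 for attached over circulating RasV12, and a mean of at least 50 CPM gave 3 in place of 6 for p35;RasV12 over RasV12. Without the 5 cells high in atilla, Fit1 was at -0.084 over w1118 and -0.021 over RasV12 and Timp at -2.15 over RasV12 in circulating p35;RasV12. Between the attached groups ItgaPS5 was at -1.50 without the cell with most of its reads in each group, at -2.59 in the cells low in fat body reads and at -2.13 without the cells high in PPO1 and PPO2, where Timp was at -2.61. In attached over circulating p35;RasV12 cells if was at -0.65 in the cells low in glue reads and -1.56 in those low in fat body reads. The settings on PPO1, PPO2 and fat body reads were chosen after seeing the data, and the cause of these moves was not tested. No paired analysis was possible because each group is 1 sample. Depth limits genes near 1 CPM, such as Timp in circulation.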
